A study of Homo sapiens with 20 samples.

Results

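Immortalized human pericytes given extracellular NAMPT together with PDGF-BB for 4 h were compared with untreated cells over all expressed genes. The libraries were taken by their labels, 5 titled with both factors and 5 titled as control, out of 20 in the series. The combined group received recombinant human eNAMPT at 500 ng/mL and recombinant human PDGF-BB at 20 ng/mL. Libraries of cells given only one of the factors, 5 with eNAMPT at 500 ng/mL and 5 with PDGF-BB at 20 ng/mL, were used where the combined level was set against a single factor. All groups came from a single immortalized line from Celther, labelled wild-type, grown in DMEM with 10% fetal bovine serum. The serum was present in every group, control included. The labels call the libraries biological replicates and do not say what separates them, so p-values measure the spread between these cultures of one line.

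NAMPT is the rate-limiting enzyme of NAD salvage, and cells also release it. The extracellular protein, eNAMPT, acts like a cytokine and has been described as a ligand of Toll-like receptor 4. That receptor signals through IRAK and TRAF proteins to NF-kB, a transcription factor held in the cytoplasm by IkB proteins until they are degraded. PDGF-BB binds PDGFRB, the receptor tyrosine kinase by which vessels recruit pericytes, and activates the RAS and ERK cascade, which turns on immediate early genes through serum response factor and its CArG boxes.

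Raw gene counts were 2894900 to 4011100 per library, and 12111 of 58676 annotated genes had enough counts to be tested. Mitochondrial genes took 8.60% ± 0.232 of counts in combined libraries and 9.15% ± 0.472 in control libraries (SD, n = 5 each; two-sided exact permutation p = 0.0556, adjusted over 5 library measures 0.278), and the part of this difference in the results was not tested. Of 16 pericyte markers, 15 were tested, and only CSPG4 among them passed (log2 fold change 0.37, SE 0.11, adjusted p = 0.021), though not without the replicate block. Leaving out control replicate 1, 2 or 3 or combined replicate 3 or 4 ended that call, with log2 fold changes of 0.285 to 0.365 and adjusted p of 0.0539 to 0.177. DES, another marker, had at most 7 counts in any library. Summed over the 15, the markers held 1480 to 1684 counts per 1000000 (CPM) in combined libraries and 1443 to 1716 CPM in control libraries. Of 12 endothelial markers 4 were tested and 0 passed; CDH5 had at most 3 counts and PECAM1 at most 20 in any library, while EGFL7 reached 62, FLT1 29, TIE1 24 and TEK 21. The tested endothelial markers summed to 18.15 to 31.22 CPM with both factors and 14.86 to 23.87 CPM in control. Of 12 leukocyte markers 3 were tested and 0 passed; PTPRC had at most 2 counts and LYZ 0, while CD14 reached 79, CD68 22 and CSF1R 21, with sums of 19.55 to 28.17 CPM in combined libraries and 22.33 to 26.27 CPM in control libraries. Of 12 neural or glial markers 2 were tested and 0 passed; GFAP had at most 4 counts, while MBP reached 123 and MAP2 64, with sums of 28.92 to 45.51 CPM with both factors and 31.33 to 52.93 CPM in control. Of 12 epithelial markers 3 were tested and KRT18 rose; EPCAM and CDH1 had at most 4 counts each, while KRT18 reached 924, KRT8 49 and MUC1 24, with sums of 200.2 to 254.7 CPM in combined libraries and 160.9 to 200.3 CPM in control libraries. Of the 12 fibroblast markers 8 were tested, and PDGFRA was the 1 member that passed. PI16 had at most 2 counts, while COL1A1 reached 15659, S100A4 701 and COL3A1 592. The tested fibroblast markers summed to 3264 to 4449 CPM in combined libraries and 3472 to 4418 CPM in control libraries. These sums lay above those of the pericyte markers only because of COL1A1, with 109061 counts over the 10 combined and control libraries. No other fibroblast marker had more than 5170 counts (S100A4), while the pericyte marker ALCAM had 15072.

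The receptors that the factors bind were all expressed. PDGFRB (ENSG00000113721, chromosome 5, 150113837 to 150155872) had 129, 126, 139, 156 and 129 CPM in combined libraries, against 135, 137, 117, 148 and 131 CPM in control libraries. The groups overlapped, and the difference did not pass (log2 fold change 0.02, SE 0.07, adjusted p = 0.932). TLR4 stood at 30.5 ± 3.71 CPM with both factors and 37.2 ± 4.46 CPM in control (SD, n = 5 each), and its co-receptors CD14 and LY96 at 16.3 ± 3.26 and 16.8 ± 3.79 CPM with both factors, against 18.4 ± 1.32 and 15.0 ± 4.18 CPM in control. None of these 4 genes passed. PDGFRA, the receptor of the related ligand PDGF-AA that also binds PDGF-BB, had 68.8, 76.4, 84.2, 70.7 and 94.6 CPM with both factors and 84.1, 86.9, 102, 101 and 115 CPM in control. It fell by 0.31 on the log2 scale (SE 0.09, adjusted p = 0.0156) and was lower in 5 of 5 same-numbered pairs, with overlapping groups. The call ended without the replicate block (adjusted p = 0.2), and without control replicate 3 (-0.29, 0.0604), control replicate 4 (-0.29, 0.0685) or combined replicate 4 (-0.26, 0.125).

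Some genes that rose most carry short NF-kB or serum response factor motifs just upstream of their start. Their promoter sequences are shown because the members of the same chemokine cluster that rose together share the same motif at nearly the same place. CXCL5 and NFKBIA are printed as well but were not among the genes that rose by a log2 fold change of at least 1. Sequences are from RefSeq (GRCh38.p14), 5′ to 3′ on the strand of the gene, and capitals mark matches to a kB site searched as GGNNTTTCC; all motifs were searched on both strands. For CXCL8 the whole window from 250 bases before to 50 bases after the start is given, and for the other genes the stretch around the match. VCAM1 and NFKBIA each held another kB match, 219 and 242 bases upstream, and only the match nearest the start is printed for them. The kB match of CXCL8 lay 91 bases upstream, with an AP-1 match (TGANTCA, left in lower case) 137 bases upstream. In CXCL1, CXCL2 and CXCL3, near-identical paralogs, there were 2 kB matches each, about 78 and 53 bases upstream.
CXCL8, chr4:73740319-73740618, plus strand: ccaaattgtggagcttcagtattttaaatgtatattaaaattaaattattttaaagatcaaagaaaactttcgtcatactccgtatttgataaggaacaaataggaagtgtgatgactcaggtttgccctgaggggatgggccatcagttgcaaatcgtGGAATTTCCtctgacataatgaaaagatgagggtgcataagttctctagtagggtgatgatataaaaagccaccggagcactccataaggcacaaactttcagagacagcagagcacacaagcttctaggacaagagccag
CXCL1, chr4:73869300-73869363, plus strand: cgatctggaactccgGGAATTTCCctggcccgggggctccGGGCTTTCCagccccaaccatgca
CXCL2, chr4:74099225-74099287, minus strand: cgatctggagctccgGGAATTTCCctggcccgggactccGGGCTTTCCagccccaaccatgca
CXCL3, chr4:74038719-74038782, minus strand: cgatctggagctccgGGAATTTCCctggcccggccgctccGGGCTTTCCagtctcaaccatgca
CXCL6, chr4:73836574-73836612, plus strand: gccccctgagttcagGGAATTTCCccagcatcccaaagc
CXCL5, chr4:73998744-73998782, minus strand: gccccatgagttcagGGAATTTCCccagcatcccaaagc
IL6, chr7:22727113-22727151, plus strand: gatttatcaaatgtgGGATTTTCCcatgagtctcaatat
VCAM1, chr1:100719665-100719703, plus strand: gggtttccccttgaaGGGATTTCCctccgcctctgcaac
ICAM1, chr19:10270919-10270957, plus strand: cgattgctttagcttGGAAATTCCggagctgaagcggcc
TNFAIP3, chr6:137867177-137867227, plus strand: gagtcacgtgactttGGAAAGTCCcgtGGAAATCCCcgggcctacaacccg
NFKB1, chr4:102501296-102501334, plus strand: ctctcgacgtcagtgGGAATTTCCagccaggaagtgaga
NFKBIA, chr14:35404807-35404845, minus strand: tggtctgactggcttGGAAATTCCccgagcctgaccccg

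The kB motif was found in 39 of the 295 promoters available for genes that rose (13.2%), in 15 of 37 for those that rose by a log2 fold change of at least 1 (40.5%), in 8 of 96 for genes that fell (8.33%), and in 605 of 9194 for all genes tested (6.58%). Over all 27305 promoters in the RefSeq table the share was 6.26%. CXCL8, CXCL6, CXCL3, CXCL1 and CXCL2 make up 5 of the 15 and are related in sequence, so these matches are not independent. The CArG box was found in 12 of 295 promoters of genes that rose (4.07%), against 100 of 9194 over all genes tested (1.09%), and 1.29% over all promoters, and 2 of the 12 also held a kB match. AP-1 matches stood in 6.44% of promoters of genes that rose, 4.27% of those tested and 7.76% of all promoters, and the CRE motif (TGACGTCA) in 4.07%, 3.43% and 1.98%. A match describes the letters and not binding. The immediate early gene EGR1 and the ligand gene PDGFA are shown with their CArG boxes in capitals, EGR1 again over the whole window.
EGR1, chr5:138465229-138465528, plus strand: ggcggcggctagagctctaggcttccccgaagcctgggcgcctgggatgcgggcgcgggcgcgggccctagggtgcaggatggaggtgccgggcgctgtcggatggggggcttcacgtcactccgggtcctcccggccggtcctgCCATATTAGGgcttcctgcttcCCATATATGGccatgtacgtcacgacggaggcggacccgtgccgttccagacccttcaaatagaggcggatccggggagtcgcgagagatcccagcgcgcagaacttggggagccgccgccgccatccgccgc
PDGFA, chr7:520322-520361, minus strand: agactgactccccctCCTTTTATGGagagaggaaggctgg

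**Figure D1:**
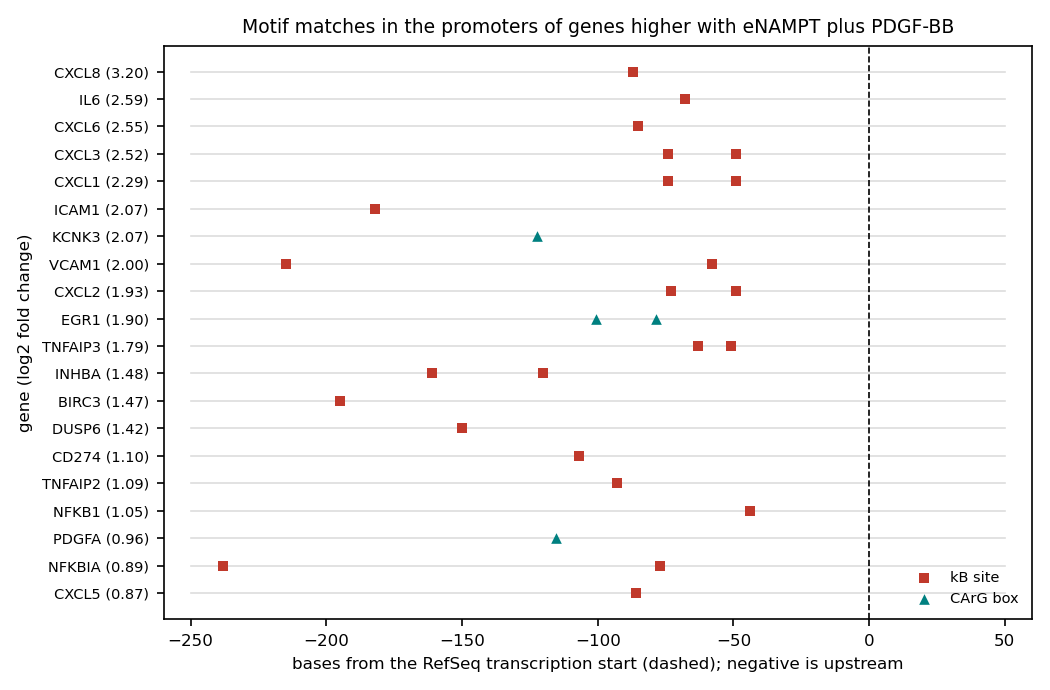
Positions of kB sites (squares) and CArG boxes (triangles) from 250 bases before to 50 bases after the RefSeq start for genes that rose by a log2 fold change of at least 1 and hold either motif, together with PDGFA, NFKBIA and CXCL5, whose sequences are printed; genes run from the largest log2 fold change (CXCL8, 3.20) down, with the value in brackets. The matches of CXCL8, CXCL6, CXCL5, CXCL3, CXCL1 and CXCL2 lie within 91 bases of the start.

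With both factors, 510 of the 12111 genes (4.21%) passed edgeR's quasi-likelihood test at an adjusted p under 0.05, 385 higher (3.18%) and 125 lower (1.03%), and 1775 genes had an unadjusted p under 0.05. This fit holds the replicate number as a block, and without the block 198 rose and 42 fell (1.98%), all of them also called with it. Scaling by ERCC spike-in counts moved the median log2 fold change of all genes from -0.0049 to -0.15 and left 59 higher and 38 lower, so changes below are relative to the bulk of genes. Most changes were small: of the genes that rose, 164 did so by at least 0.5, 52 by at least 1, and 9 by at least 2 on the log2 scale, and of those that fell, 52, 11 and 1. The median was 0.44 among genes that rose and -0.44 among those that fell. Combined and control libraries did not overlap for 162 of the genes that rose and 52 of those that fell; over all genes tested 1.75% lay wholly higher and 1.18% wholly lower. The genes that rose were chosen on these same libraries, so a larger share of CPM with both factors than in control was fixed in advance. The choice also favours the combined libraries over those with 1 factor. Genes that rose held 8.96% ± 0.480 of all CPM with both factors, 7.08% ± 0.316 with eNAMPT, 8.48% ± 0.358 with PDGF-BB and 6.91% ± 0.264 in control (SD, n = 5 each). Nearly all were protein-coding, 379 of the 385 and 120 of the 125, as were 11137 of the 12111 tested.

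**Figure D2:**
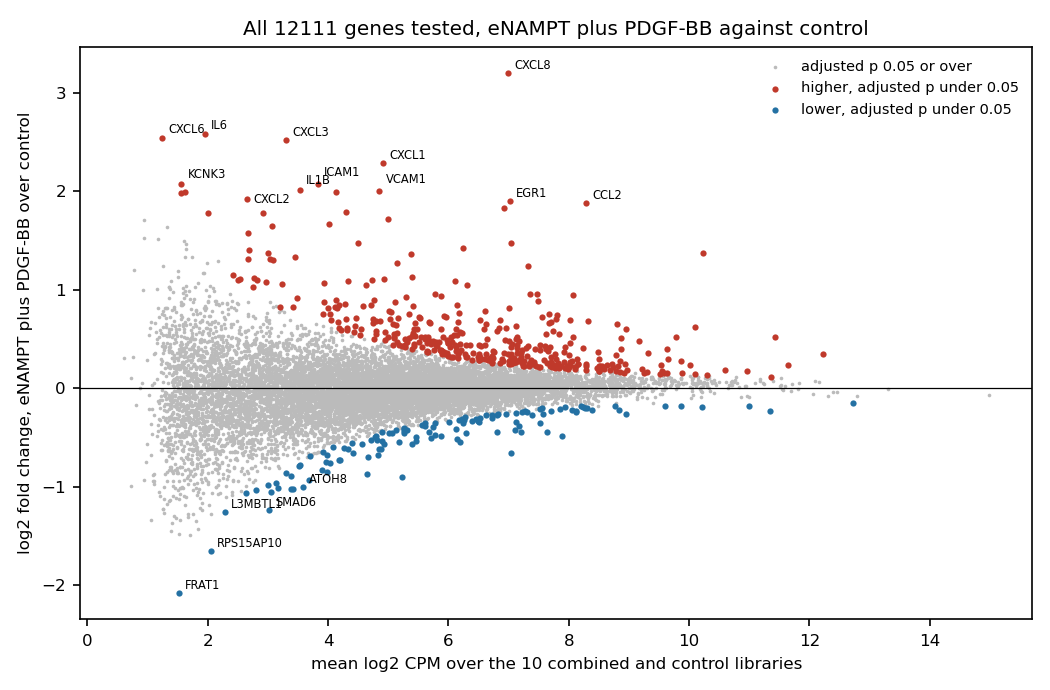
Log2 fold change of eNAMPT plus PDGF-BB over control against mean log2 CPM for all 12111 genes tested; each point is a gene, red where it rose, blue where it fell and grey where it did not pass. CXCL8 (3.20) and FRAT1 (-2.08) mark the ends among genes that passed, and the changes above 2 are all rises except FRAT1.

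Chemokines, the secreted attractants of leukocytes, showed the largest rises, and 7 of 11 tested members passed, all higher, with or without the block (median log2 fold change 1.88). Here and for each later list, the shares over all genes tested were 3.18% higher and 1.03% lower. CXCL8, interleukin 8 (ENSG00000169429, chromosome 4, 73740506 to 73743716), had 341, 330, 420, 404 and 431 CPM in combined libraries, against 45.0, 42.0, 47.6, 24.8 and 53.2 CPM in control libraries. Its lowest combined library was over 6 times the highest control library, and its change (log2 fold change 3.20, SE 0.08, adjusted p = 2.82e-68) was the largest of all genes that passed. CXCL1, another neutrophil attractant, had 66.0, 57.7, 70.2, 74.6 and 57.8 CPM with both factors and 10.1, 14.5, 15.1, 11.5 and 16.0 CPM in control (log2 fold change 2.29, SE 0.15, adjusted p = 7.37e-29). CCL2, which attracts monocytes (ENSG00000108691, chromosome 17, 34255218 to 34257203), had 612, 521, 564, 632 and 686 CPM with both factors and 149, 145, 161, 147 and 226 CPM in control (log2 fold change 1.88, SE 0.06, adjusted p = 2.44e-60). The groups did not overlap for any of the 3 genes. CXCL3 rose by 2.52 (SE 0.26, adjusted p = 1.68e-14), CXCL2 by 1.93 (SE 0.34, adjusted p = 1.05e-05) and CXCL6 by 2.55 (SE 0.57, adjusted p = 0.000958), the last from under 1 CPM on average in control. Reads from CXCL1, CXCL2 and CXCL3 can be hard to assign because the genes are near-identical. CXCL12 (0.03), CXCL14 (-0.40), CXCL16 (0.42) and CCL5 (0.48) did not pass.

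Of 14 tested cytokine genes 8 rose and 0 fell, 5 of them without the block (median 0.74). IL6, a central inflammatory cytokine, had 10.5, 11.1, 9.43, 5.18 and 4.93 CPM in combined libraries and 1.53, 0.323, 0.985, 1.60 and 2.05 CPM in control libraries (log2 fold change 2.59, SE 0.45, adjusted p = 5.64e-06). IL1B, interleukin 1 beta, had 31.4, 25.2, 19.2, 19.2 and 18.4 CPM with both factors and 6.12, 6.14, 7.22, 1.87 and 7.16 CPM in control (log2 fold change 2.01, SE 0.25, adjusted p = 4.12e-11). Both were low genes whose groups nonetheless did not overlap. LIF, a cytokine of the IL6 family, had 46.8, 55.0, 58.5, 57.7 and 74.9 CPM with both factors and 12.2, 10.7, 28.2, 14.7 and 25.6 CPM in control (log2 fold change 1.71, SE 0.14, adjusted p = 3.48e-20). IL11, of the same family, was higher in 5 of 5 same-numbered pairs although its groups overlapped, at 209, 181, 312, 304 and 264 CPM with both factors and 122, 87.5, 201, 116 and 131 CPM in control (log2 fold change 0.96, SE 0.08, adjusted p = 3.68e-21).

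NF-kB genes themselves were among those that rose, 8 of 16 tested with 0 lower, and 7 without the block (median 0.40). NFKBIA, which encodes IkB-alpha, had 260, 256, 239, 244 and 225 CPM in combined libraries, against 140, 140, 136, 114 and 132 CPM in control libraries (log2 fold change 0.89, SE 0.07, adjusted p = 5.03e-24). TNFAIP3, the ubiquitin-editing inhibitor A20, had 29.2 to 39.1 CPM with both factors and 17.7, 9.04, 9.19, 10.1 and 6.82 CPM in control (log2 fold change 1.79, SE 0.18, adjusted p = 8.8e-16). The combined libraries of both inhibitors lay above every control library. The subunit gene NFKB1, for p105 and p50, rose by 1.05 (SE 0.09, adjusted p = 4.27e-19), RELB by 1.27 (SE 0.14, adjusted p = 1.03e-13) and the A20 partner TNIP1 by 0.54 (SE 0.10, adjusted p = 9.24e-06). RELA (-0.05) and REL (0.20) did not pass. Among adaptors and survival genes 7 of 23 rose and 0 fell, with the same number without the block. They included TRAF1 (1.67), the inhibitor of apoptosis BIRC3 (1.47), the kinase IRAK2 (1.57), TNFAIP2 (1.09) and the anti-apoptotic MCL1 (0.37), while MYD88 (0.15) and TRAF6 (0.10) did not pass. Of 32 cytokine and pattern receptors 5 rose, 3 without the block, and 0 fell (median 0.023), among the 5 IFNGR2 (0.67), the TRAIL receptor TNFRSF10B (0.72) and IL7R (0.40). The share that rose over all genes tested was 3.18%.

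Surface molecules rose in 9 of 19 cases, 6 without the block, and 0 fell. ICAM1, a ligand of leukocyte integrins, had 34.2, 22.2, 35.1, 24.6 and 28.6 CPM with both factors and 4.28, 6.46, 3.94, 9.08 and 10.2 CPM in control (log2 fold change 2.07, SE 0.21, adjusted p = 1.37e-14). VCAM1 had 46.8, 58.2, 58.2, 73.8 and 51.9 CPM in combined libraries and 21.7, 7.75, 12.5, 13.4 and 17.7 CPM in control libraries (log2 fold change 2.00, SE 0.15, adjusted p = 4.77e-24). Neither gene's groups overlapped. CD274, the checkpoint ligand PD-L1, averaged 38.2 ± 3.81 CPM with both factors and 17.9 ± 3.44 CPM in control (SD, n = 5 each), and CD83 13.2 ± 3.37 and 3.86 ± 1.47 CPM. F3, tissue factor, the starter of coagulation, rose by 0.70 (SE 0.06, adjusted p = 4.15e-17).

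Immediate early genes, transcribed within minutes to hours of growth factor signalling without new protein, rose in 17 of 34 cases and fell in 1 (IER5L), against 15 and 0 without the block (median 0.40). EGR1 (ENSG00000120738, chromosome 5, 138465490 to 138469315) had 245, 225, 273, 283 and 223 CPM in combined libraries, against 56.9, 70.7, 69.6, 67.0 and 70.6 CPM in control libraries (log2 fold change 1.90, SE 0.08, adjusted p = 2.64e-47). The stress-response gene IER3 (ENSG00000137331, chromosome 6, 30743199 to 30744554) had 1877, 1456, 1975, 2158 and 2244 CPM with both factors and 713, 667, 769, 687 and 914 CPM in control (log2 fold change 1.37, SE 0.04, adjusted p = 1.88e-58), and its rise of 1192 CPM was the largest in absolute level by the naming rule. For both genes every combined library lay above every control library. JUNB (0.95), MAFF (0.84), IER2 (0.75) and MYC (0.70) also rose, whereas FOS (1.17) and EGR2 (1.71), with few counts, did not pass. In the list of ERK feedback genes 7 of 19 rose, 6 without the block, and 0 fell. Not all members are inhibitors of ERK, and the 7 include LIF, also counted among the cytokines. DUSP6, the phosphatase that acts on ERK, had 122, 127, 123, 137 and 114 CPM with both factors and 53.5, 42.0, 72.2, 30.2 and 39.9 CPM in control (log2 fold change 1.42, SE 0.11, adjusted p = 4.62e-23). DUSP5 (1.13), DUSP1 (0.92) and the EGF receptor inhibitor ERRFI1 (0.93) rose too, while the ETV1 (-0.03), ETV4 (-0.11) and ETV5 (-0.01) factors did not pass.

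**Figure D3:**
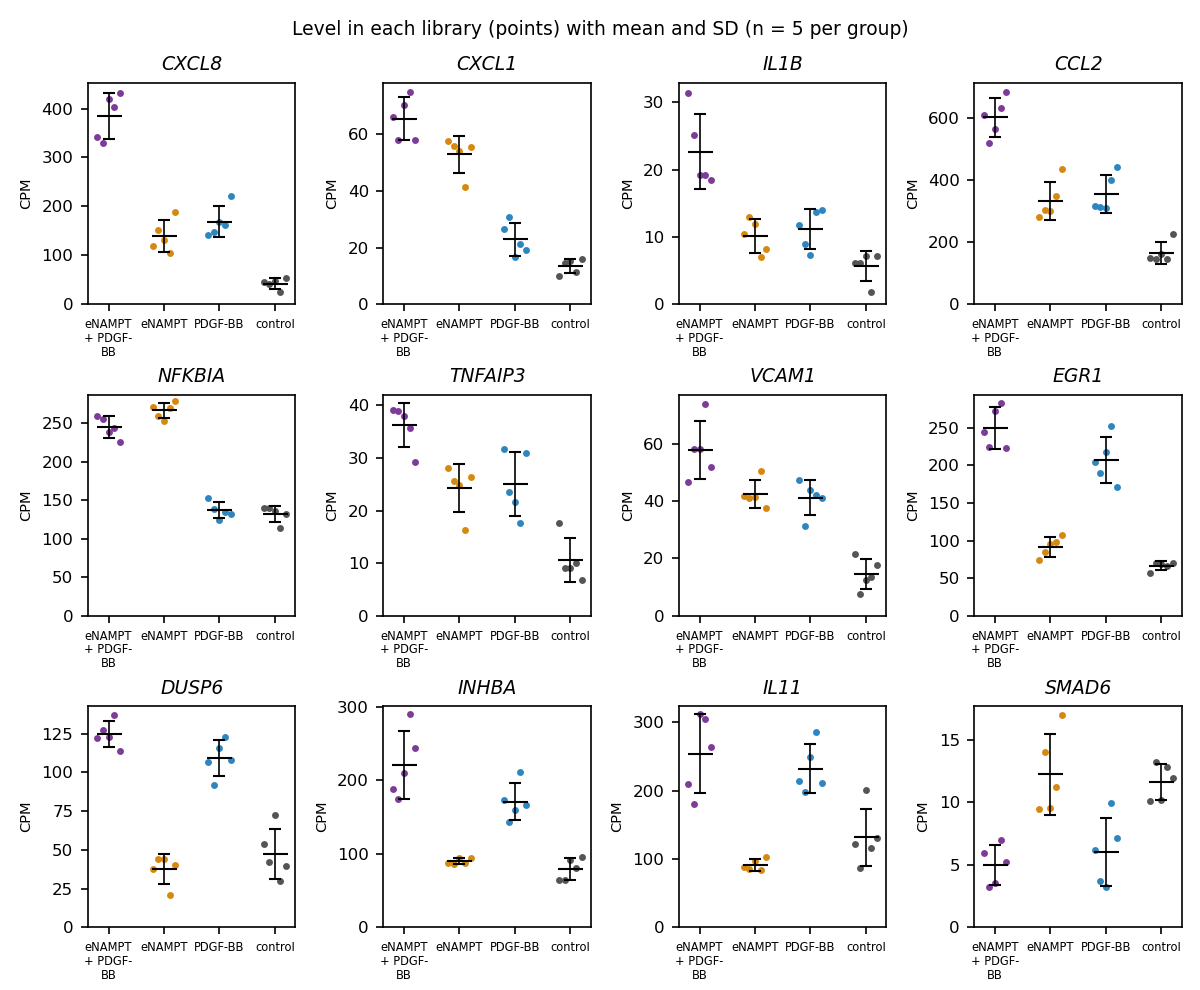
CPM of 12 genes in each library (points), with the mean and SD of 5 libraries per group; groups run from eNAMPT plus PDGF-BB through eNAMPT and PDGF-BB to control. NFKBIA and CXCL1 sit high with eNAMPT and with both factors, EGR1, DUSP6 and INHBA with PDGF-BB and with both, and CXCL8 averages 385 CPM with both factors against 42.5 CPM in control.

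Secreted growth factors formed one of the most responsive lists, with 15 of 28 tested members higher and 2 lower, and 11 and 1 without the block (median 0.46). INHBA, the activin A subunit (ENSG00000122641, chromosome 7, 41667168 to 41705834), had 188, 175, 210, 290 and 244 CPM in combined libraries and 63.9, 64.6, 91.9, 80.9 and 95.9 CPM in control libraries (log2 fold change 1.48, SE 0.08, adjusted p = 1.52e-35). HBEGF, a ligand of the EGF receptor, had 198, 217, 251, 285 and 292 CPM with both factors and 97.9, 96.6, 108, 91.9 and 130 CPM in control (log2 fold change 1.25, SE 0.07, adjusted p = 8.24e-32). PDGFA, a chain of the PDGF family itself, had 228, 229, 216, 232 and 228 CPM with both factors and 111, 109, 124, 107 and 135 CPM in control (log2 fold change 0.96, SE 0.07, adjusted p = 2.58e-24). All 3 genes had groups that did not overlap. ANGPTL4, a lipase inhibitor that acts on vessels, rose by 1.37 (SE 0.13, adjusted p = 2.04e-17) and the hormone gene STC1 by 0.95 (SE 0.07, adjusted p = 1.07e-24). Among growth factor receptors 3 of 20 rose and 1 fell, with 1 higher and 0 lower without the block, and EGFR (0.07), FGFR1 (0.09) and MET (0.07) did not pass. Of all genes tested 3.18% rose and 1.03% fell.

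In the hyaluronan list 3 of 8 rose and 0 fell, with 2 higher without the block (median 0.043). PTX3, a soluble pattern receptor that organises hyaluronan matrix, had 213, 198, 214, 238 and 281 CPM in combined libraries and 69.2, 59.7, 62.4, 45.4 and 89.7 CPM in control libraries (log2 fold change 1.83, SE 0.08, adjusted p = 1.39e-44). HAS2, which makes hyaluronan, had 51.3, 55.3, 54.3, 56.4 and 63.8 CPM with both factors and 28.8, 27.5, 35.5, 28.0 and 38.9 CPM in control (log2 fold change 0.83, SE 0.12, adjusted p = 4.34e-08). Both were separated from control in every library. Matrix proteolysis genes rose in 8 of 26 cases, 5 without the block, with 0 lower, among them the protease ADAMTS1 (0.67), the urokinase receptor PLAUR (0.60) and the metalloproteinase inhibitor TIMP3 (0.40). Of 28 collagens and matrix proteins 3 rose and 1 fell, with 2 and 0 without the block: TNC (0.61), THBS1 (0.39) and COL6A3 (0.27) were higher and COL1A2 (-0.18) lower, while COL1A1 (-0.03) and FN1 (-0.01) did not pass. Beside these counts, 3.18% of all genes tested rose and 1.03% fell. The enzyme PTGS2, cyclooxygenase 2, averaged 14.1 ± 5.84 CPM with both factors and 5.76 ± 4.68 CPM in control, with overlapping groups (log2 fold change 1.31, SE 0.27, adjusted p = 0.00031).

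The actin genes ACTG1 and ACTB and the transgelin gene TAGLN rose by little, but together with the replicate number. Of 24 contractile genes 7 rose and 0 fell, and 3 without the block (median 0.13, largest 1.64). TAGLN3 rose by more (adjusted p = 4.78e-06), with log2 fold changes of 1.49 to 1.891 in the fits without 1 library. It kept its call in each of these fits and without the block. ACTG1, cytoplasmic gamma actin, had 4721, 4655, 5707, 6268 and 5752 CPM in combined libraries and 4017, 3771, 4090, 4605 and 4744 CPM in control libraries, numbered 1 to 5 in that order (log2 fold change 0.35, SE 0.03, adjusted p = 2.18e-16). Libraries 3, 4 and 5 of both groups lay above libraries 1 and 2 of the same group, so the groups overlapped although each pair was higher with both factors. TAGLN, transgelin, rose by 0.24 (SE 0.04, adjusted p = 6.16e-06) with the block and had an adjusted p of 0.625 without it, and ACTB, whose reads can be hard to part from ACTG1, by 0.17 (SE 0.04, adjusted p = 0.00122), with 0.303 without it. ACTA2, the smooth muscle actin that marks contractile pericytes, did not pass (0.13). The small GTPase gene RRAD averaged 35.0 ± 8.76 CPM with both factors and 8.92 ± 4.07 CPM in control (log2 fold change 2.00, SE 0.19, adjusted p = 4.15e-17), and 6 of 16 inducible small GTPase and RGS genes rose, 5 without the block, with 0 lower. The scaffold gene AKAP12 rose by 0.62 (SE 0.04, adjusted p = 8.77e-26).

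**Figure D4:**
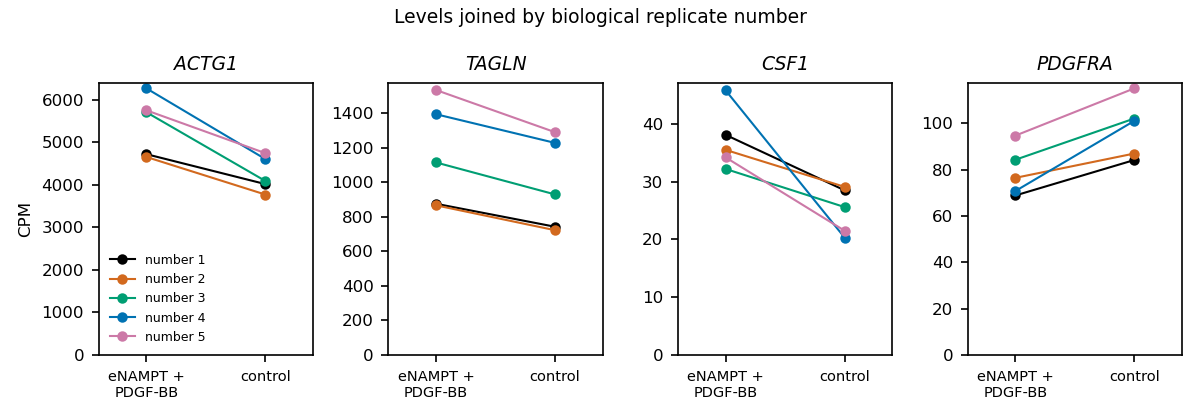
CPM of ACTG1, TAGLN, CSF1 and PDGFRA with eNAMPT plus PDGF-BB (left of each panel) and in control (right), each line joining libraries of the same replicate number. Every line of ACTG1, TAGLN and CSF1 is higher with both factors and every line of PDGFRA lower, while ACTG1 and TAGLN libraries 1 and 2 are the lowest of both groups.

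Interferon-induced genes rose in 24 of 46 cases, 16 without the block, and 0 fell (median 0.34). MX1, an antiviral GTPase, had 251, 253, 187, 303 and 230 CPM in combined libraries and 165, 218, 99.5, 153 and 116 CPM in control libraries (log2 fold change 0.72, SE 0.07, adjusted p = 1.82e-16). Its groups overlapped, library 2 being the highest of the control group, yet every pair was higher with both factors. IFI44L (0.69), RSAD2 (0.72), XAF1 (0.55) and GBP1 (0.52) also rose. Of 12 antigen presentation genes only the peptide transporter TAP1 passed (0.44), and B2M (0.06) did not. IRF1 (0.23) and STAT2 (0.02), transcription factors of this pathway, did not pass.

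Factors that destroy mRNA rose in 3 of 19 cases, with 0 lower and the same number without the block: ZFP36L1 (0.48), ZC3H12C (0.89) and the RNase regnase-1, ZC3H12A (1.10). ZC3H12A did not pass without control replicate 3, 4 or 5 or combined replicate 2 or 5 (0.897 to 1.054, adjusted p 0.052 to 0.107). In the prostaglandin list 3 of 13 rose and 0 fell, PTGS2 beside the sphingosine kinase SPHK1 (0.49) and the sphingosine phosphate receptor S1PR3 (0.45). S1PR3 did not pass without combined replicate 2 (0.368, adjusted p = 0.0687) or control replicate 4 (0.366, 0.0736). Of 27 solute carriers 4 rose and 1 fell, with 1 each without the block, SLC39A14, a zinc and iron transporter, being the 1 that rose in both fits (0.52). Of 9 Notch genes HES4 alone passed (0.71), and neither without the block nor without combined replicate 5 (0.578, 0.0586). YAP and SRF target genes rose in 5 of 19 cases, 3 without the block, with 0 lower. For each of these lists, the shares over all genes tested were 3.18% higher and 1.03% lower.

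Several smaller groups included genes of known function in growth and metabolism. Of 30 cell cycle entry genes 5 rose and 1 fell, with 4 and 1 without the block. CCND1, cyclin D1, rose by 0.51 (SE 0.05, adjusted p = 2.65e-14) and averaged 557 ± 14.2 CPM with both factors and 395 ± 54.5 CPM in control. The inhibitor CDKN1A (0.69) and the DNA damage gene GADD45A (0.71) rose, and the inhibitor CDKN2C fell (-0.51). In ribosome biogenesis 8 of 37 rose, such as DDX21 (0.30) and WDR43 (0.27), but 0 did so without the block (median 0.13). Of 31 lipid synthesis genes 5 rose, 0 without the block, among them INSIG1 (0.34), and LIPE fell in both fits. SOD2, the mitochondrial superoxide dismutase, had 30.0, 20.9, 21.1, 20.2 and 17.1 CPM with both factors and 8.87, 14.2, 6.57, 9.08 and 13.3 CPM in control, without overlap (log2 fold change 1.06, SE 0.20, adjusted p = 4.82e-05). It was 1 of 5 antioxidant genes that rose of 23, and the only one of them without the block. NAMPT itself, the intracellular enzyme's gene, had 85.5, 90.5, 71.2, 91.4 and 82.5 CPM with both factors and 75.0, 65.9, 58.4, 62.8 and 60.4 CPM in control (log2 fold change 0.39, SE 0.10, adjusted p = 0.00393), the 1 of 19 NAD metabolism genes that passed. In glycolysis and hypoxia 1 of 28 passed, and in stress and unfolded protein genes 2 of 27, and 0 in either list without the block. Over all genes tested 4.21% passed, and no list was tested as a set.

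**Figure D5:**
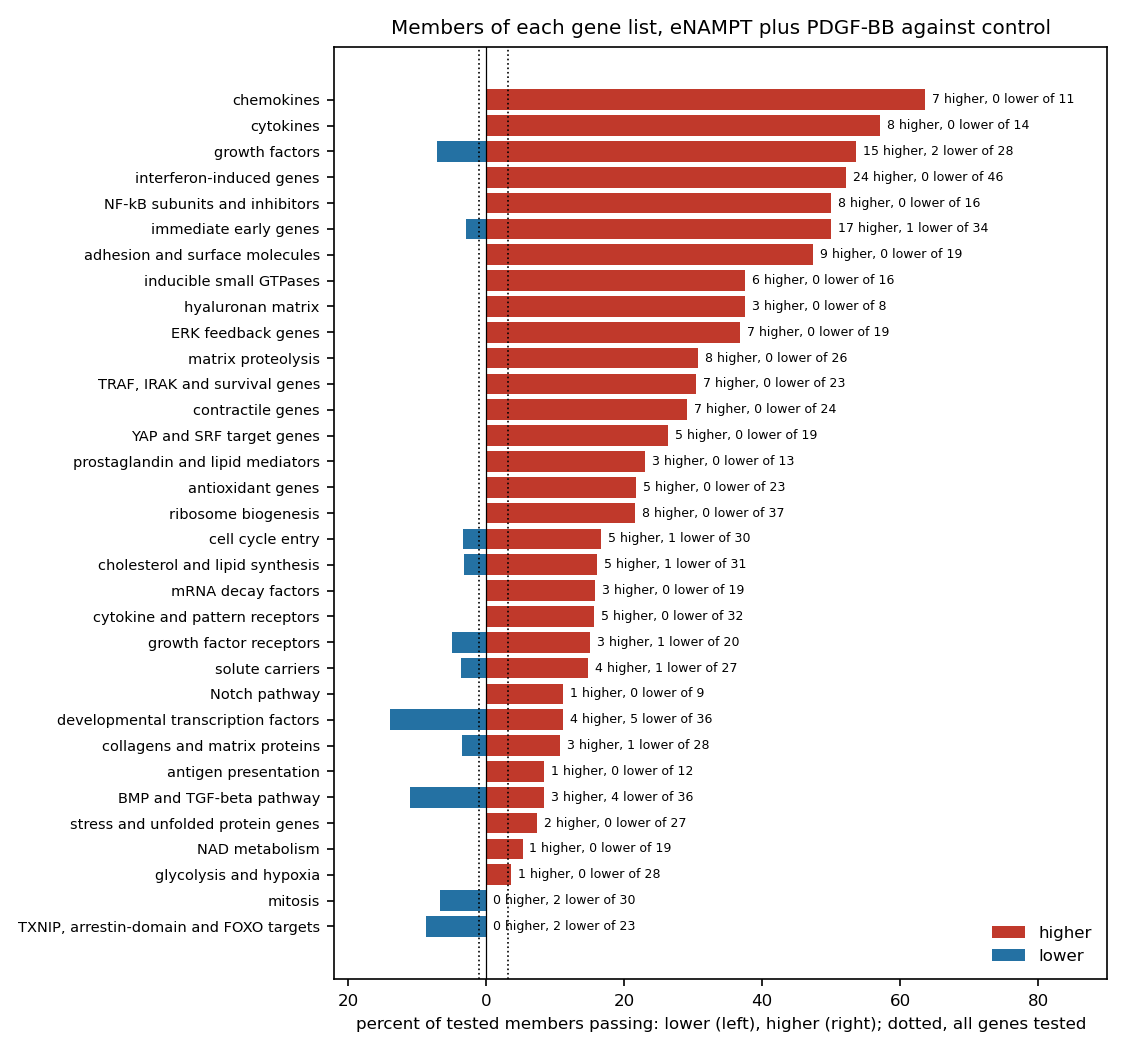
Percent of tested members of each of 33 gene lists that were higher (red, to the right) or lower (blue, to the left) with eNAMPT plus PDGF-BB than in control, with counts beside each bar; dotted lines mark 3.18% higher and 1.03% lower over all genes tested. Chemokines (7 of 11) and cytokines (8 of 14) lead, and the mitosis and FOXO lists have no member higher.

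Genes that fell formed fewer groups. In the BMP and TGF-beta pathway 4 of 36 fell and 3 rose, and 2 each without the block. Beside this list and the next, 1.03% of all genes tested fell and 3.18% rose. SMAD6, an inhibitor of BMP signalling (ENSG00000137834, chromosome 15, 66702228 to 66782848), had 5.94, 3.25, 3.58, 6.99 and 5.26 CPM in combined libraries and 10.1, 13.2, 10.2, 12.8 and 11.9 CPM in control libraries (log2 fold change -1.24, SE 0.28, adjusted p = 0.00134). ID2, a target of BMP signalling that blocks differentiation factors, had 18.2, 26.8, 15.3, 14.8 and 17.4 CPM with both factors and 36.1, 37.5, 29.2, 35.3 and 28.3 CPM in control (log2 fold change -0.87, SE 0.15, adjusted p = 8.37e-06). Both genes were lower in every combined library. ID1 fell by 0.35 on the log2 scale (adjusted p = 3.42e-05; without the block 0.135), while the BMP antagonist GREM1 (0.28) and the activin antagonist FST (0.76) rose. Developmental transcription factors fell in 5 of 36 cases and rose in 4, against 4 and 2 without the block. ZIC1 averaged 96.0 ± 14.8 CPM with both factors and 130 ± 10.4 CPM in control (log2 fold change -0.44, SE 0.08, adjusted p = 1.95e-05) and ZIC2 34.6 ± 5.97 and 50.8 ± 2.73 CPM (log2 fold change -0.57, SE 0.12, adjusted p = 0.000434), whereas TBX3 (0.61) and SOX9 (0.46) rose.

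The largest falls by log2 were of low genes. FRAT1, a regulator of WNT signalling, had 0.349, 1.63, 1.63, 0.777 and 0.986 CPM with both factors and 2.75, 5.49, 4.92, 3.21 and 7.51 CPM in control (log2 fold change -2.08, SE 0.53, adjusted p = 0.00525), on 3.6 and 15.0 counts per library. Its relative FRAT2 fell by 1.02 on the log2 scale (adjusted p = 0.0033), the lipase LIPE by 1.06 (0.00684), the transcription factor ATOH8 by 1.01 (0.00117) and the receptor KIT by 1.03 (0.00353; without the block 0.0645). RPS15AP10, a pseudogene whose reads may come from the ribosomal protein gene RPS15A, fell by 1.65 (0.00548) and did not pass without control replicate 1 (-1.34, 0.0798). The calls of L3MBTL1, FRMD4B, RALGAPA2, PHF7 and WNK4, with log2 fold changes of -1.26 to -0.97, each ended in 5 to 7 of the 10 fits without 1 library. In those fits the changes were -1.257 to -0.762 and the adjusted p 0.0514 to 0.191, and each of the 10 libraries ended at least 1 of these calls.

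Among genes of higher level that fell, SLC38A2, an amino acid transporter, had 183, 216, 226, 203 and 176 CPM in combined libraries and 299, 277, 273, 276 and 278 CPM in control libraries, with no overlap (log2 fold change -0.49, SE 0.06, adjusted p = 1.97e-10). The authors' deposited table of the same comparison, whose log2 values run control over combined, had 201 genes higher with both factors and 46 lower at an adjusted p under 0.05, and all 247 passed here. Of the TXNIP, arrestin-domain and FOXO targets 2 of 23 fell and 0 rose, and 1 without the block. TXNIP, an inhibitor of thioredoxin, averaged 60.5 ± 9.40 CPM with both factors and 80.7 ± 11.8 CPM in control (log2 fold change -0.41, SE 0.10, adjusted p = 0.00242). Of 30 mitosis genes 2 fell, both only with the block. Genes that fell made up 1.03% of all those tested. TOP2A, which untangles chromosomes, had 1932, 1831, 1987, 2039 and 1840 CPM with both factors and 2063, 2087, 2115, 2559 and 2106 CPM in control (log2 fold change -0.18, SE 0.04, adjusted p = 0.000335; without the block 0.185), and CENPF, a kinetochore protein, fell by 0.27 (6.05e-05; without the block 0.0794). In bulk RNA, fewer cells in a state and less RNA per cell cannot be told apart. KRT18, the 1 epithelial marker that rose, averaged 211 ± 26.7 CPM with both factors and 161 ± 16.6 CPM in control (log2 fold change 0.39, SE 0.07, adjusted p = 3.3e-06), while KRT8 (-0.02) and MUC1 (-0.62) did not pass.

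Set against PDGF-BB alone, the combined libraries held 13 genes higher (0.107%) and 2 lower (0.0165%) by the same test, 0.124% of genes in all, with 657 at an unadjusted p under 0.05 and 7 passing without the block. CXCL1 had 66.0, 57.7, 70.2, 74.6 and 57.8 CPM with both factors and 26.6, 30.7, 16.7, 21.1 and 19.2 CPM with PDGF-BB, which differed by 1.52 on the log2 scale (SE 0.13, adjusted p = 6.18e-18). NFKBIA had 260, 256, 239, 244 and 225 CPM with both factors and 153, 139, 125, 135 and 132 CPM with PDGF-BB (0.84, adjusted p = 6.86e-22). Neither gene's groups overlapped. The others were CXCL2 (1.60), CXCL8 (1.21), CXCL3 (1.02), IL1B (1.01), BIRC3 (0.77), CCL2 (0.76), IER3 (0.64), PTX3 (0.58), INHBA (0.36) and GADD45A (0.27), all higher, with NFKBIZ (0.82), an inducible IkB protein named after its values were seen. The lower ones were PDGFRA (-0.37, adjusted p = 0.03) and the small nucleolar RNA SNORD13 (-0.35, 0.00481). Without the block all 7 calls were higher, so neither of these falls passed there. GADD45A was also near the threshold (adjusted p = 0.0462). EGR1 (0.27), DUSP6 (0.20) and PDGFA (0.02) did not pass.

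Set against eNAMPT alone, 359 genes were higher (2.96%) and 152 lower (1.26%) with both factors, 4.22% in all, with 1779 at an unadjusted p under 0.05 and 185 passing without the block. DUSP6 had 122, 127, 123, 137 and 114 CPM with both factors and 37.6, 44.1, 44.4, 21.0 and 40.2 CPM with eNAMPT (1.75, adjusted p = 3.33e-29), and the groups lay far apart. EGR1 (1.44), PDGFA (1.10) and INHBA (1.28) were also higher, as were CXCL8 (1.49) and CCL2 (0.86). CXCL1 (0.31, adjusted p = 0.158) and NFKBIA (-0.12, 0.339) did not pass. Altogether 9 genes passed against control, against PDGF-BB and against eNAMPT: CXCL8, CXCL3, CCL2, IL1B, IER3, PTX3, INHBA and GADD45A were higher each time and SNORD13 lower each time. The call of SNORD13 against control ended without the block (adjusted p = 0.792), with ERCC scaling (0.377), with DESeq2 (0.411; 0.302 on the genes tested) and with a robust prior in edgeR (0.143). It also ended without control replicate 2, 3 or 4 or combined replicate 2, 3, 4 or 5 (-0.246 to -0.148, adjusted p 0.0644 to 0.398). These comparisons share the combined libraries.

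The interaction asks whether the combined log2 change differs from the sum of both single changes. It passed for 7 genes (0.0578%), 1 above the sum (0.00826%) and 6 below (0.0495%), with 662 at an unadjusted p under 0.05. It passed for 0 genes without the block and for 1 with DESeq2 on the same genes. IL11 (ENSG00000095752, chromosome 19, 55364389 to 55370463) had 209, 181, 312, 304 and 264 CPM with both factors, 88.2, 85.0, 96.7, 83.2 and 103 CPM with eNAMPT, 214, 198, 249, 286 and 211 CPM with PDGF-BB and 122, 87.5, 201, 116 and 131 CPM in control. The eNAMPT libraries lay mostly below control, while the combined and PDGF-BB libraries overlapped, and the interaction was 0.62 (SE 0.11, adjusted p = 0.000968). VCAM1 averaged 57.8 ± 10.1 CPM with both factors, 42.4 ± 4.76 CPM with eNAMPT, 41.2 ± 6.06 CPM with PDGF-BB and 14.6 ± 5.33 CPM in control, below the sum of both log2 changes by 1.05 (SE 0.20, adjusted p = 0.002). CXCL8 averaged 385 ± 46.4, 139 ± 32.6, 169 ± 31.6 and 42.5 ± 10.7 CPM in the same order, with an interaction of -0.50 (SE 0.12, adjusted p = 0.0451).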

How the data were processed

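RNA from 20 cultures, 5 per group, was extracted with a SPLIT RNA kit and sequenced, per the labels' protocols. The submitters' processing notes name GRCh38, the aligner STAR 2.6.1a, the counter featureCounts 1.6.4, the quality tool FastQC 0.11.7 and the test DESeq2 1.18.1; the strand setting of the counting is not given in the sources used here. The authors deposited raw counts per gene, which were used as they stand after 99 spike-in rows were removed, and a table of log2 fold changes and p-values of their own. A second deposited count table, higher in 152066 cells and lower in 0, served as an alternative. All 58676 gene IDs matched GENCODE 29. Depth was 2894900 to 4011100 counts per library, which limits what low genes can show.

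Genes were filtered with filterByExpr, scaled by TMM and fitted with edgeR 4.0.16 (R 4.3.3) by a quasi-likelihood model of the 4 groups over all 20 libraries, with the replicate number as a block and 12 residual degrees of freedom. The fit also shares its estimate of spread across genes, so p-values do not rest on these 12 degrees of freedom of each gene alone. Tests were two-sided, p-values were adjusted by Benjamini-Hochberg over 12111 genes, and the threshold was 0.05. SE is the log2 fold change over the square root of F, and CPM is TMM-normalized. The steps were also run on simulated counts that had shared replicate effects built in. Such counts cannot tell whether the block is apt for these libraries. Alternatives were no block, other scalings, filters, thresholds and tools (limma 3.58.1, DESeq2 1.42.0) and each library left out in turn. Library measures were compared by exact permutation. Figures used matplotlib 3.10.9.

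Named genes were those that passed, averaged at least 1 log2 CPM (prior count 2) and had the same sign in all 5 same-numbered pairs: the 15 largest log2 rises, 12 largest log2 falls, 10 largest CPM rises and 5 largest CPM falls. To these were added up to 5 members of each list, up to 10 genes passing against all 3 other groups, the 3 smallest interaction p and 6 fixed genes. Genes that did not pass are given as examples of their lists and were chosen after their values were seen, as were CSF1, CXCL5 and IER5L. The comparison, its members and the gene lists were chosen with earlier results of these data known.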

Additional observations from a re-analysis of the deposited data

Results flagged for a closer look

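In 20 of 318 groups of 5 libraries tested, over 154 named genes and 5 library measures, 1 library stood apart from the other 4 by Dixon's test, and chance alone gives about 1 in 20. In combined libraries these were DLC1 replicate 5 (272 CPM, others 213 to 227), EFNB2 replicate 2 (15.2 CPM, others 23.1 to 25.5), ID2 replicate 2 (26.8 CPM, others 14.8 to 18.2), MAFF replicate 2 (67.7 CPM, others 97.5 to 104) and PDGFA replicate 3 (216 CPM, others 228 to 232). In control libraries they were ATOH8 replicate 4 (22.7 CPM, others 14.5 to 16.5), C15orf48 replicate 2 (2.58 CPM, others 0.612 to 1.07), CCL2 replicate 5 (226 CPM, others 145 to 161), CENPF replicate 2 (574 CPM, others 532 to 536), DLC1 replicate 5 (251 CPM, others 176 to 192), EGR1 replicate 1 (56.9 CPM, others 67.0 to 70.7) and FRAT2 replicate 1 (18.7 CPM, others 12.3 to 13.8). The remaining control libraries were IL1B replicate 4 (1.87 CPM, others 6.12 to 7.22), INSIG1 replicate 5 (78.1 CPM, others 116 to 129), NOP16 replicate 5 (134 CPM, others 78.8 to 91.9), NUAK2 replicate 4 (8.55 CPM, others 2.91 to 3.98), SLC38A2 replicate 1 (299 CPM, others 273 to 278), TAP1 replicate 5 (50.2 CPM, others 64.1 to 68.8), TNFAIP2 replicate 2 (72.7 CPM, others 38.6 to 43.3) and TOP2A replicate 4 (2559 CPM, others 2063 to 2115). DLC1 stood apart in replicate 5 of both groups.

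The combined log2 change differed from the sum of the single changes for 7 genes (edgeR quasi-likelihood interaction, adjusted p under 0.05), and for 0 without the replicate block. IL11 lay above the sum by 0.616 on the log2 scale. The values below the sum were -1.046 for VCAM1, -0.505 for CXCL8, -0.629 for SNORD13, -0.564 for SCARNA22, -0.590 for FAM53C and -0.314 for RNU4ATAC.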

How the results depend on the processing

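Against control, 510 genes passed, 385 higher and 125 lower. Without the replicate block 240 passed (198 and 42), with ERCC scaling 97 (59 and 38), with DESeq2 on all genes 1205 (734 and 471; 490 when run on the genes tested; 644 of the 1205 outside the genes tested, with a median of 5 counts over 20 libraries), at an adjusted p under 0.01 318 (lower 59), and at an absolute log2 fold change of at least 1 63 (52 and 11). Leaving out 1 library gave 382 to 482 (higher 294 to 360, lower 82 to 122, the 82 without combined replicate 3). The other alternatives gave 432 to 521.

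Against PDGF-BB, 15 passed: 7 without the block, 2 with ERCC scaling, 683 with DESeq2 on all genes (14 on the genes tested), 5 at the fold limit, and 9 (without combined replicate 4) to 17 without 1 library. Against eNAMPT, 511 passed: 185 without the block, 62 with ERCC scaling, 1151 with DESeq2 on all genes (487 on the genes tested), 292 at 0.01, 51 at the fold limit, and 353 to 451 without 1 library. The interaction passed for 7: 0 without the block or with ERCC scaling, 334 with DESeq2 on all genes, 1 with DESeq2 on the genes tested or a robust prior (both chosen after seeing the data), 3 at 0.01, 1 at the fold limit, 4 with the other count table, and 3 (without PDGF-BB 1 or combined 3), 4 (without combined 2, eNAMPT 2, 3 or 5 or PDGF-BB 3 or 5) and up to 11 (without control 2) without 1 library. The cause of these differences was not tested.

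Over the 33 lists, 182 of 769 distinct members tested rose and 21 fell, against 117 and 11 without the block. Over all genes tested 3.18% rose and 1.03% fell, and the lists were chosen with earlier results known. Calls were more frequent at high level. Of the 4037 genes of highest mean log2 CPM 263 rose and 64 fell, against 29 and 22 of the 4037 lowest. The part of level in the list counts was not tested. Of 148 named genes that passed, 115 did so in all 10 fits without 1 library and 46 lost the call without the block, and with ERCC scaling 86 did. PDGFRB (0.02) turned to -0.117 with ERCC scaling and ranged from -0.013 without control replicate 3 (-0.012 without combined replicate 3) to 0.061 without 1 library, and MAP2 (-0.10) from -0.207 to 0.064, the last without control replicate 1. Neither passed. Without 1 library, the combined minus control differences ranged from -545 to 292400 in total counts, -0.7156 to -0.4104 in mitochondrial percent (p = 0.00794 by exact permutation without control replicate 4), 0.04526 to 0.3267 in spike-in percent, -0.523 to -0.2817 in the percent of the top 10 genes and -266 to -21.45 in genes detected.

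The labels do not say what a replicate number marks. Same-numbered combined and control libraries had correlated deviations of 0.0496 to 0.151, and replicates 2, 4 and 5 correlated best with their own number, so the pairing is a hint from the data, not the design.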
